A study of Eucalyptus globulus and Eucalyptus grandis with 36 samples.

Results

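Gibberellins are plant hormones that drive stem elongation, and they also act on cambial growth and wood formation in trees. The gene Eucgr.F02568, described in the files as gibberellin 3-oxidase 1, belongs to the enzyme family that carries out the last step to the bioactive forms. The gene Eucgr.G01294 is described as a gibberellin-regulated family protein, a family of small, cysteine-rich, secreted peptides (named GASA in Arabidopsis), many of whose members respond to the hormone. These 2 genes were chosen by their identifiers, with their values known, out of 11827 genes that stand in any of 8 deposited tables. Their levels and differences are therefore given as a description, with no test. The gene identifiers are those of the Eucalyptus grandis gene catalogue as the files give them. The files place the end of Eucgr.G01294 at position 67220700 of a sequence they call pchr4, and that of Eucgr.F02568 at position 35248699 of pchr5, in a genome build not given in the sources used here.

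Active gibberellin is made by 20-oxidases and then 3-oxidases, and is inactivated by 2-oxidases. The hormone binds the GID1 receptor, and the complex marks DELLA proteins, which hold growth back, for degradation. In Arabidopsis, genes for 20-oxidases and 3-oxidases are repressed by the active hormone, a known feedback.

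RNA of whole stems was sequenced from Eucalyptus globulus and Eucalyptus grandis seedlings raised from clonal seed. The seedlings were 6 months old and 25 cm tall, and were kept for 35 days in growth chambers, after 1 week of acclimation. All groups had 10 h of light per day at 280 µmol per m2 per s. The 36 samples form 12 groups of 3: both species at 10, 20 or 30 °C, each in elevated CO2 (700 ppm) or in ambient CO2 (400 ppm by the design text and 390 ppm by the protocol). Whether samples of 1 group come from separate plants is not stated in the labels, and E. grandis at 20 °C with elevated CO2 was not analysed here. Chambers ran at 10 to 12, 22 to 24 and 33 to 35 °C, and treatment and chamber cannot be told apart. The E. globulus groups used for both genes were 10 °C with elevated CO2, 20 °C with elevated CO2, 10 °C and 30 °C in ambient CO2, and the control at 20 °C in ambient CO2.

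Each value is the authors' normalised group value on a log2 scale, where a difference of 1 is a 2-fold difference and the lowest value in the files is 0. There is 1 value per gene and group and none per sample, so no SD or n can be given and the depth is unknown. A gene is called changed between 2 groups where it stands in the authors' table of that pair and the groups are at least 2-fold apart. The authors selected genes at a corrected p of 0.05, over all 3 temperatures together in the 2 tables of temperature, so a pair of temperatures has no test of its own. In whole stems, fewer cells of a type and less RNA per cell cannot be told apart. Of the tissue markers looked up, 8 xylem genes were found (fasciclin-like proteins and a laccase), with control levels of 5.03 to 13.3 in E. globulus. Other xylem genes looked up, such as cellulose synthase A4, were not found by description. The 16 phloem genes with a control value had levels of 0.36 to 13.1. The 7 leaf genes, rubisco small chain and chlorophyll-binding, ran from 0 to 9.78, with 1 of them at 0.

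The gibberellin-regulated gene Eucgr.G01294 had its highest levels in the cold in E. globulus stems. Its level was 7.77 at 10 °C, 2.16 at 20 °C and 0.97 at 30 °C in ambient CO2, and 10.15 at 10 °C with elevated CO2. Both groups at 10 °C were thus far above both warmer groups. The range over the 4 groups was 9.18 on the log2 scale. The order from high to low was 10 °C with elevated CO2, 10 °C, 20 °C and 30 °C. Without values per sample, it cannot be said which neighbours in that order lie within the spread of the samples.

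**Figure D1:**
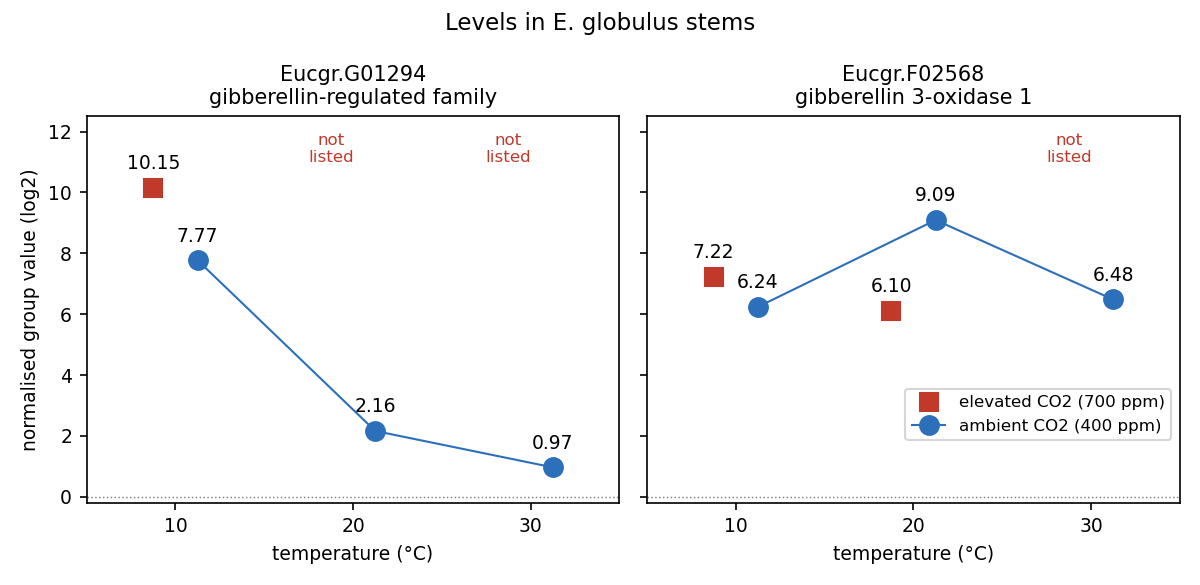
Normalised group values (log2, y axis) of Eucgr.G01294 and Eucgr.F02568 in E. globulus stems against temperature (°C, x axis), with squares for elevated CO2 drawn left of circles for ambient CO2. Each point is the authors' single value for a group, with no error. Eucgr.G01294 is highest in both groups at 10 °C (10.15 and 7.77), and Eucgr.F02568 is highest in the control (9.09).

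At 10 °C, Eucgr.G01294 had a level of 7.77, against 2.16 in the control at 20 °C. The difference of 5.61, or 48.7-fold, was the 25th highest among the 7453 genes of the temperature table. Genes that were at least 2-fold higher at 10 °C made up 17.1% of the 11827. The rule that chose the gene used this contrast, so nothing is read from that share.

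At 10 °C with elevated CO2, its level was 10.15, against 2.16 in the control, a difference of 7.99 or 254-fold. This was the highest of all 3372 differences in that table, and 15.8% of the 11827 genes were higher in it. Both folds use the same control value, which lies 2.16 above the lowest value of the files. Such folds may depend on how low counts were treated, which no source used here gives.

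Most of the 7 genes taken as leaf markers were also higher in the cold. At 10 °C 5 of the 7 were higher than in the control and 1 lower, beside 17.1% and 14.4% of the 11827 genes. The median difference of the 7 was 3.25. Their levels were 1.72 to 12.96 at 10 °C, against 0 to 9.78 in the control. Summed on the linear scale, they came to a log2 value of 13.71 at 10 °C, against 10.96 in the control. With elevated CO2 at 10 °C 5 of the 6 listed were higher and 1 lower, beside 15.8% and 12.7% of the 11827 genes. The median difference of the 6 was 4.48, and their log2 sum was 14.95, against 10.94 in the control. Whether these genes themselves respond to cold in stem cells was not tested, so they do not measure the amount of leaf or green tissue. The part of such tissue in the level of Eucgr.G01294 was not tested either. At 30 °C, where Eucgr.G01294 was lower, 3 of the 7 leaf markers were higher and 0 lower, beside 22.7% and 14.8% of the 11827 genes.

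The difference between CO2 levels within 10 °C does not use the control value. All genes with a value at 10 °C with elevated CO2 were, however, selected as at least 2-fold from the control. The rank and the shares that follow rest on that selection. With elevated CO2 the level of Eucgr.G01294 was 10.15, against 7.77 in ambient CO2, a difference of 2.38 or 5.21-fold. It was the 10th highest of the 2555 genes with a value in both groups, where the median difference was 0.05. In that comparison 5.40% of genes were at least 2-fold higher and 4.03% at least 2-fold lower. The groups come from separate tables, and the authors ran no test between them in the files used here.

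At 30 °C the level of Eucgr.G01294 was 0.97, against 2.16 in the control, a difference of -1.20 or 2.29-fold lower. This is the smallest of its differences, and both levels are near the lowest value of the files. Genes at least 2-fold lower at 30 °C than in the control were 14.8% of the 11827.

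Set against 10 °C, the level at 30 °C was 0.97 and that at 10 °C was 7.77. The difference of -6.80, or 112-fold lower, was the 3rd lowest of 7453 genes. Genes lower at 30 °C than at 10 °C made up 18.4% of the 11827. The widest gap was between 10 °C with elevated CO2 (10.15) and 30 °C (0.97), 9.18 or 581-fold, the highest of 2555 genes. In that pair, which is also set across tables, 32.4% of genes were at least 2-fold higher and 29.4% lower.

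Gibberellin 3-oxidase 1, Eucgr.F02568, had another pattern. Its level was highest in the control and lower in every other group with a value. It was 6.24 at 10 °C, 9.09 at 20 °C and 6.48 at 30 °C in ambient CO2. In elevated CO2 it was 7.22 at 10 °C and 6.10 at 20 °C. The 4 groups other than the control spanned 6.10 to 7.22, and the nearest of them differed from the control by -1.87.

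Cold and heat gave nearly the same level of Eucgr.F02568. At 10 °C it was 6.24, against 9.09 in the control, a difference of -2.85 or 7.22-fold lower, and 14.4% of the 11827 genes were at least 2-fold lower in this comparison. At 30 °C it was 6.48, against 9.09 in the control, a difference of -2.61 or 6.10-fold lower. Between 30 °C (6.48) and 10 °C (6.24) the difference was 0.24, below the 2-fold minimum. Centred on the median of all genes in that pair, it was -0.16, so its direction is not settled.

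Elevated CO2 at 20 °C gave the largest difference from the control. The level of Eucgr.F02568 was 6.10 with elevated CO2, against 9.09 in the control, a difference of -2.99 or 7.94-fold lower. This was the 23rd lowest of 595 genes in that table, in which 204 genes were lower, or 1.72% of the 11827, and 3.31% were higher. Eucgr.F02568 was the only one of 36 gibberellin genes in it.

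At 10 °C with elevated CO2 the level of Eucgr.F02568 was 7.22, against 9.09 in the control, a difference of -1.87 or 3.65-fold lower. In that comparison 12.7% of the 11827 genes were lower.

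Within 10 °C, Eucgr.F02568 was at 7.22 with elevated CO2, against 6.24 in ambient CO2. The difference of 0.98, or 1.98-fold, falls just short of the 2-fold minimum and ranked 150th highest of 2555 genes. The same contrast of CO2 at 20 °C was -2.99, the opposite sign. Whether the CO2 effect differs between both temperatures was not tested, as there is no value per sample. Within elevated CO2, the level at 10 °C was 7.22, against 6.10 at 20 °C, a difference of 1.12 or 2.17-fold, and 31.6% of the 640 genes with both values were at least 2-fold higher and 23.3% lower. Centred on the median of these genes it was 0.92, under 2-fold. Across tables, the level at 20 °C with elevated CO2 (6.10) was close to the levels in ambient CO2 at 10 °C (6.24) and at 30 °C (6.48). The differences of -0.14 and -0.38 were both under 2-fold, and centring turned that against 30 °C to 0.25. Of the 1340 genes with these values, 23.4% were higher and 16.0% lower than at 10 °C, and 22.7% were higher and 40.9% lower than at 30 °C.

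Some xylem markers were also lower in these 4 groups. Of the 8 found, 2 of 6 listed were lower than the control at 10 °C and 2 of 6 at 30 °C, and 0 were higher in either. Summed on the linear scale, they came to a log2 value of 12.97 at 10 °C and 13.23 at 30 °C, against 13.98 in the control. Of all 11827 genes, 14.4% were lower and 17.1% higher at 10 °C, and 14.8% and 22.7% at 30 °C. With elevated CO2, 1.72% were lower and 3.31% higher at 20 °C, and 12.7% and 15.8% at 10 °C. At 20 °C with elevated CO2 the 1 listed was lower (-1.16), and at 10 °C with elevated CO2 all 3 listed were lower, with a median difference of -1.83. At 10 °C the xylem markers ranged from 6.70 to 12.1, against 6.00 to 13.3 in the control. Of the phloem markers listed, 1 of 10 was lower and 1 higher at 10 °C, and 4 of 10 were lower and 2 higher at 30 °C, where the median difference was -0.91. The 1 listed at 20 °C with elevated CO2 was lower (-1.34), and the 1 listed at 10 °C with elevated CO2 was higher (1.56). The genes taken as leaf markers had median differences of 3.25 at 10 °C and 0.84 at 30 °C. With elevated CO2 these were 1.57 for the 2 listed at 20 °C and 4.48 at 10 °C. The part of these tissues in the level of Eucgr.F02568 was not tested.

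All 4 lower values of Eucgr.F02568 are set against the same control value, so they are not independent of each other. Among the 540 genes with a value in the same 5 groups, the control was at least 1 above every other group in 36 (6.67%). The control was at least 1 below every other group in 84 (15.6%). All 540 genes were, however, selected as at least 2-fold from the control in the cold with elevated CO2. Both shares rest partly on that selection, so they do not show how often a control stands apart among all genes. The part of the control samples in the result was not tested. Neither ordering among the 4 lower groups nor their distance can be set against a spread of samples.

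Side by side, both genes were in opposite directions from the control in the cold. At 10 °C, Eucgr.G01294 differed from the control by 5.61 and Eucgr.F02568 by -2.85. With elevated CO2 at 10 °C the differences were 7.99 and -1.87. At 30 °C both were lower, by -1.20 for Eucgr.G01294 and -2.61 for Eucgr.F02568. These comparisons share the control samples. Elevated CO2 within 10 °C gave positive differences for both, 2.38 for Eucgr.G01294 and 0.98 for Eucgr.F02568. These differences do not use the control value, but both genes were selected as at least 2-fold from it at 10 °C with elevated CO2.

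Several groups have no value for these genes. Eucgr.G01294 was listed in 2 of the 8 tables and Eucgr.F02568 in 3, all of them E. globulus against its own control. Eucgr.G01294 was not among the 595 genes listed for elevated CO2 at 20 °C. Neither gene was among the 5445 genes listed for E. globulus at 30 °C with elevated CO2, nor in any of the 4 tables with an E. grandis group. A gene that is not listed may have missed the authors' threshold on p or on fold, so its level there is unknown, and it cannot be said that the species differ. In E. grandis the listed genes were fewer. At 10 °C 1.20% of the 11827 genes were higher than in the E. grandis control and 2.00% lower, and at 30 °C 0.854% were higher and 0.490% lower. Between 30 °C and 10 °C 2.53% were higher and 1.45% lower. With elevated CO2 3.91% were higher and 9.20% lower than that control at 10 °C, and 4.89% were higher and 3.43% lower at 30 °C. For E. globulus at 20 °C with elevated CO2 against the E. grandis control, 7.11% were higher and 12.8% lower. Neither gene is among any of these.

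The other gibberellin genes were taken from a list of 36, found by description, of which 17 are response genes, 11 synthesis, 5 inactivation and 3 signalling. The 36 include Eucgr.G01294 and Eucgr.F02568. At 10 °C, 12 of the 36 were higher than in the control (33.3%) and 5 lower (13.9%), beside 17.1% and 14.4% of the 11827 genes. Eucgr.G01294 is among these 12 and Eucgr.F02568 among these 5. At 30 °C, 13 were higher (36.1%) and 4 lower (11.1%), beside 22.7% and 14.8%, and both genes are among the lower ones. The median difference of the 26 list genes in the temperature table was 0.81 at 10 °C, and that of all 7453 genes was 0.08. At 30 °C these medians were 0.91 and 0.35.

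Eucgr.F02568 was 1 of 4 synthesis genes lower at 10 °C, out of 11, and none of those listed was higher, beside 14.4% and 17.1% of the 11827 genes. The other lower ones were Eucgr.D02170 at -1.91 and Eucgr.D02168 at -1.07, both described as ent-kaurenoic acid hydroxylase 2, which acts early in the pathway, and the gibberellin 20-oxidase Eucgr.E01336 at -2.02. This 20-oxidase, which makes the substrate of 3-oxidases, was picked out after its values were seen, and it was 4.05-fold lower at 10 °C than in the control. Of the other 10 synthesis genes, 6 were listed over temperature. The rest have no known level at 10 or 30 °C in ambient CO2. At 30 °C Eucgr.F02568 was the only listed synthesis gene at least 2-fold lower than the control. There 3 were at least 2-fold higher, beside 14.8% of the 11827 genes lower and 22.7% higher. The 20-oxidase Eucgr.E01336 was under 2-fold at 30 °C, with a difference of -0.28. Set against 10 °C, 6 synthesis genes were higher at 30 °C, where 23.9% of the 11827 were. Eucgr.F02568, with its difference of 0.24, was not among them.

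Of the 5 genes for 2-oxidases, which inactivate the hormone, 2 were higher than the control at 10 °C and 0 lower, beside 17.1% and 14.4% of the 11827 genes. Another 2 were under 2-fold, with differences of 0.96 for Eucgr.K03561 and -0.66 for Eucgr.D00814. Eucgr.G02012, described as gibberellin 2-oxidase 8, had a level of 6.18 at 10 °C, against 4.67 in the control. Eucgr.D00297 had 6.99, against 5.30 in the control. The count was the same at 30 °C, with 2 of the 5 higher than the control and 0 lower, beside 22.7% and 14.8% of the 11827 genes. There the higher ones were Eucgr.K03561 (1.14) and Eucgr.D00814 (1.11). With elevated CO2 at 10 °C, 3 of the 5 were higher than the control, and 5 of 11 synthesis genes, Eucgr.F02568 among them, were lower, beside 15.8% of all genes higher and 12.7% lower.

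**Figure D2:**
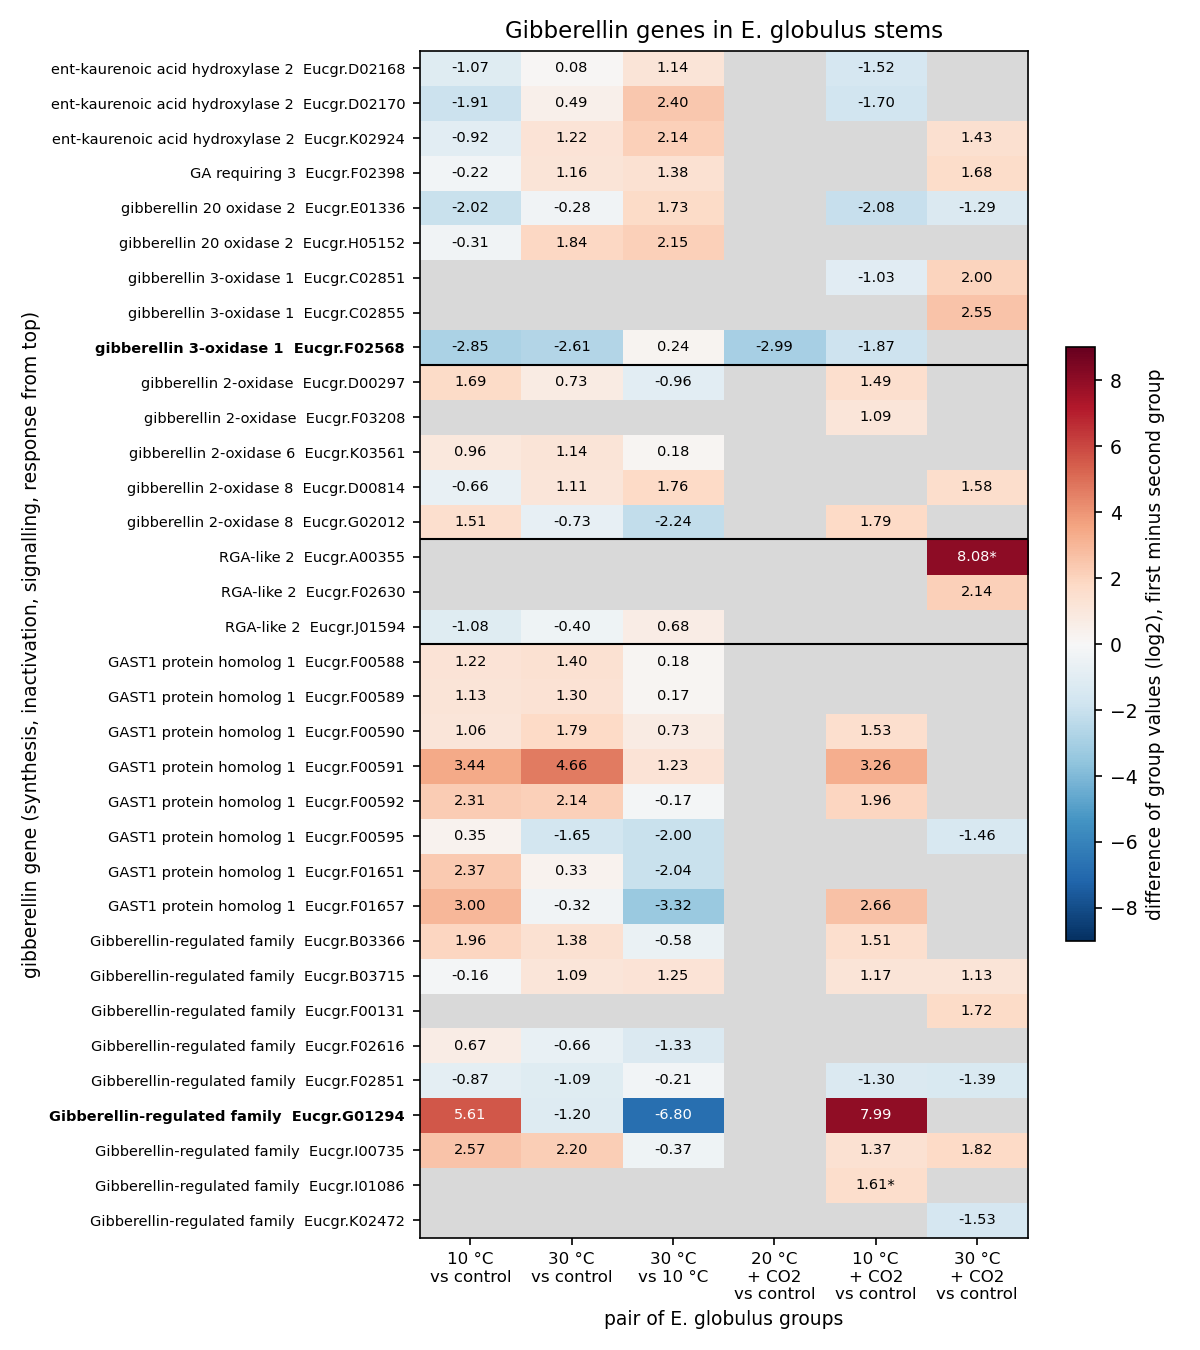
Differences of group values (log2, first minus second group, colour and number) for the gibberellin genes listed in the 6 pairs of E. globulus groups (x axis), with genes in rows by role and Eucgr.F02568 and Eucgr.G01294 in bold. Grey marks a gene that is not listed for a pair, and a star marks a group value of 0, where no fold is given. Among genes without a star, Eucgr.G01294 has the strongest colours, at 10 °C with elevated CO2 (7.99), at 30 °C against 10 °C (-6.80) and at 10 °C (5.61). Eucgr.F02568 is the only gene listed for 20 °C with elevated CO2 against the control (-2.99).

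Eucgr.F02568 is 1 of 3 genes described as gibberellin 3-oxidase 1, which may share reads, since their sequences were not compared. The other 2 had values in fewer E. globulus groups, some of them shared with Eucgr.F02568, and none at 10 or 30 °C in ambient CO2. Eucgr.C02851 had a level of 1.99 at 10 °C with elevated CO2, against 3.02 in the control, lower like Eucgr.F02568. At 30 °C with elevated CO2, where Eucgr.F02568 was not listed, Eucgr.C02851 had 5.02, against 3.02 in the control, and Eucgr.C02855 had 3.06, against 0.52 in the control. At 30 °C with elevated CO2, 29.9% of the 11827 genes were higher and 16.2% lower. At 20 °C with elevated CO2 Eucgr.C02855 had 2.60, against 0.52 in the control, above it where Eucgr.F02568 was below. The authors did not list Eucgr.C02855 for that pair, and its control level is near the lowest value of the files.

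Eucgr.G01294 was 1 of 10 response genes at least 2-fold higher at 10 °C, out of 17. None was at least 2-fold lower, beside 17.1% of the 11827 genes higher and 14.4% lower. The other 9 had differences of 1.06 to 3.44, so that of Eucgr.G01294, 5.61, was the largest of the 10. The next largest differences at 10 °C were those of Eucgr.F00591 at 3.44 and Eucgr.F01657 at 3.00, both described as GAST1 protein homolog 1. Of the 8 GAST1 homologs, 6 have end positions 4.27 to 6.64 kb apart on pchr5, and such neighbours may share reads.

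The family split at 30 °C. Eucgr.G01294 was lower than the control with Eucgr.F00595 (-1.65) and Eucgr.F02851 (-1.09), while 8 of the other 16 were higher, by 1.09 to 4.66, beside 22.7% of the 11827 genes higher and 14.8% lower. Eucgr.F00591 had a level of 8.38 at 30 °C and 7.16 at 10 °C, against 3.72 in the control, high at both temperatures where Eucgr.G01294 was high only in the cold. Eucgr.F01657 had 6.58 at 10 °C, 3.58 at 20 °C and 3.26 at 30 °C, the order of Eucgr.G01294 over temperature. Its level at 10 °C with elevated CO2 was 6.24, below that at 10 °C in ambient CO2, where Eucgr.G01294 was above. With elevated CO2 at 10 °C, Eucgr.G01294 and 8 others were higher than the control and Eucgr.F02851 was lower (-1.30), beside 15.8% and 12.7% of all genes.

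Genes with a profile close to that of Eucgr.G01294 were ranked by the root-mean-square difference of log2 values, each gene centred on its own mean, over 4 groups and 2555 genes. The smaller this value, the closer the profile, and its median was 3.77. The closest 5 with a description were Eucgr.B01008 (1.03) and Eucgr.B01896 (1.37), both of the chlorophyll A-B binding family and among the 7 leaf markers, Eucgr.H03885, a 2-oxoglutarate-dependent oxygenase (1.29), Eucgr.F02644, a laccase 14 (1.51), and Eucgr.F03176, a myb domain protein (1.54). All 5 had their highest level at 10 °C with elevated CO2 and their next at 10 °C, as Eucgr.G01294 did, but over smaller ranges. The level of Eucgr.B01008 was 12.9 at 10 °C with elevated CO2, 11.5 at 10 °C, 6.50 at 30 °C and 6.80 in the control. A ranking over 4 group values is loose, and none of these 5 is among the closest 5 by correlation.

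The same ranking for Eucgr.F02568 ran over 5 groups and 540 genes, with a median of 1.65. The closest was Eucgr.B03062, another 2-oxoglutarate-dependent oxygenase, at 0.335. It was followed by the kinase Eucgr.G01424 (0.418), the phytochromobilin synthase HY2 Eucgr.G00241 (0.485), which makes the light-sensing pigment of phytochrome, the cupredoxin Eucgr.I00451 (0.508) and the EXS family gene Eucgr.B03070 (0.534). For 4 of these 5, levels outside the control were 0 to 0.64 and those in the control 1.72 to 2.55, which is near the lowest value of the files. Eucgr.F02568 itself stayed at 6.10 or more in every group, so it shares with them the distance of the control and not the level.

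**Figure D3:**
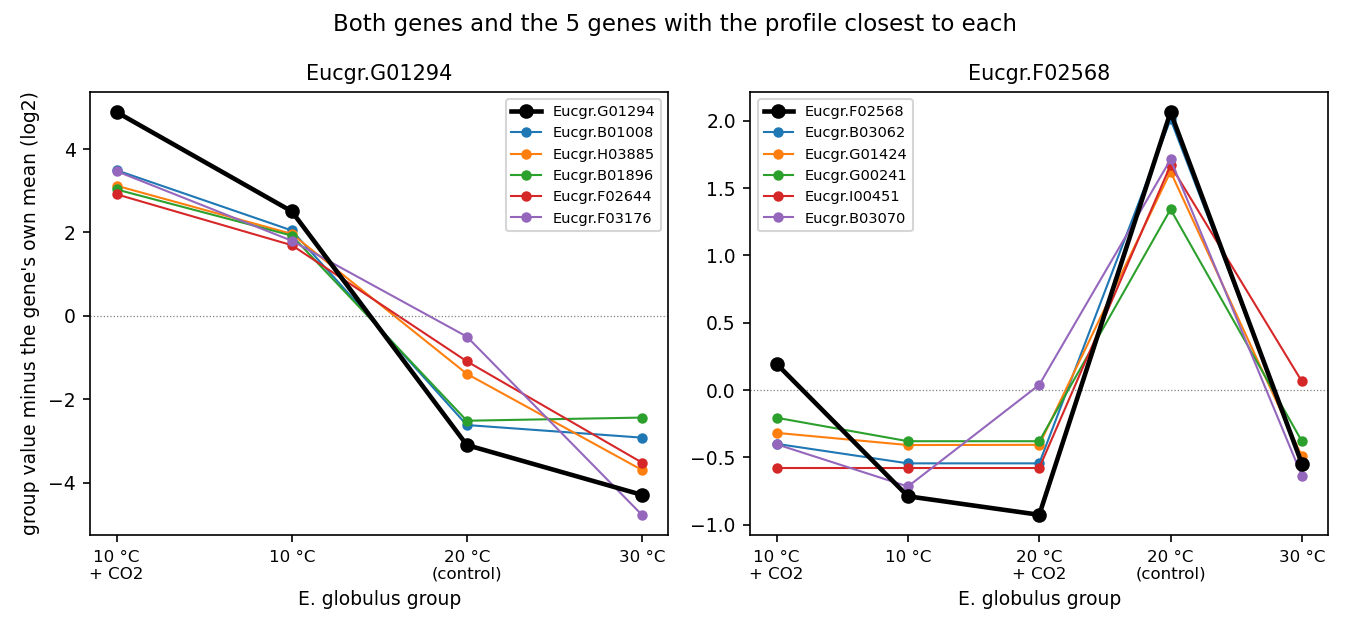
Group values minus each gene's own mean (log2, y axis) over the E. globulus groups (x axis) for Eucgr.G01294, Eucgr.F02568 and the 5 described genes closest to each. The genes beside Eucgr.G01294 share its high values at 10 °C with smaller ranges, and those beside Eucgr.F02568 share a single high value in the control.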

How the data were processed

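Stem RNA was sequenced in 36 samples, 3 per group, and each sample was grouped by its title. The submitters' processing notes name Bowtie2 and DESeq but neither a version nor a role. Each deposited value is a log2 value that the authors normalised by a method not stated, 1 for each gene and group, and the base follows from the deposited folds. The deposited fold (a ratio of at least 1) and log2 fold change were checked against the group values: all 38299 log2 fold changes equalled the difference (tolerance 0.0001), and 10115 of 10115 values repeated between tables were equal. Per the file headers, genes passed a corrected p of 0.05 and a fold of at least 2. By the same headers, tables of 2 groups used a moderated test and tables of 3 temperatures a one-way ANOVA.

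Differences, counts and rankings were computed from the group values with Python 3.11.15 and pandas 2.3.3. The ranking code was run on planted copies of each gene's own profile with slight noise and found them. That does not show how well it ranks real profiles. Both genes and the list of gibberellin genes were chosen with earlier results of these data known. Named list genes are those with the widest range, up to 6 per role, and 5 described genes per ranking. The planned look at protein and promoter sequence was not done, and symbols in the files equal the identifiers, so descriptions alone found the list. The table that sets E. globulus against the E. grandis control was read by its column headers. Eucgr.E01336, Eucgr.D02168, Eucgr.F02851 and Eucgr.F00588 were named after their values were seen. A 4-fold minimum, centring, other tables and correlation were tried as alternatives.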

Additional observations from a re-analysis of the deposited data

How the results depend on the processing

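No paired analysis was possible because the files hold group values without replicates, and leaving out a replicate was not run for the same reason. The 3 levels repeated in other tables were equal. At a 4-fold minimum, 3 of 16 differences no longer passed: Eucgr.G01294 at 30 °C against the control (-1.20), and Eucgr.F02568 at 10 °C with elevated CO2 against the control (-1.87) and against 20 °C with elevated CO2 (1.12). Centred on the median of all listed genes, which moved by 0.003 to 1.20, 13 of 16 differences kept direction and side. For Eucgr.F02568, 30 °C against 10 °C turned to -0.16 and 20 °C with elevated CO2 against 30 °C to 0.25, neither past 2-fold, and 10 °C against 20 °C in elevated CO2 became 0.92. These medians are of selected genes.

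Counts of gibberellin genes at a 4-fold minimum were, higher and lower, 6 and 2 at 10 °C and 3 and 1 at 30 °C against the E. globulus control. They were 3 and 4 at 30 °C against 10 °C. At 20 °C with elevated CO2 they were 0 and 1 against the E. globulus control. At 10 °C with elevated CO2 they were 3 and 1 against it, and at 30 °C with elevated CO2 3 and 0. In E. grandis 0 were higher in any pair. At 30 °C against 10 °C 1 was lower. With elevated CO2 1 was lower at 10 °C and 1 at 30 °C. For E. globulus in elevated CO2 against the E. grandis control 4 were higher and 2 lower. The counts were likewise 4 and 2 at the 2-fold minimum without genes listed at 0. No share of all genes at a 4-fold minimum is given beside these counts. By Pearson correlation, 0 of the closest 5 genes were shared for Eucgr.G01294 and 3 for Eucgr.F02568. With neither depth nor replicates, no difference can be set against sampling error.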

Other observations

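At 30 °C with elevated CO2 neither Eucgr.G01294 nor Eucgr.F02568 was listed. Both genes listed there as RGA-like 2, a DELLA protein that restrains gibberellin responses in Arabidopsis, were higher than in the E. globulus control. Eucgr.A00355 had a level of 8.08, and it was listed at 0 in the control, so no fold is given. Eucgr.F02630 had 6.64, against 4.50 in the control. The third, Eucgr.J01594, was lower at 10 °C, with 10.97 against 12.04 in the control. Of the 36 gibberellin genes, 10 were higher there (27.8%) and 4 lower (11.1%), beside 29.9% and 16.2% of the 11827 genes.

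In E. grandis few gibberellin genes were listed. The 2-oxidase Eucgr.G02012 was higher at 10 °C, with 7.02 against 5.81 in the E. grandis control, while 1.20% of the 11827 genes were higher there. It was also higher at 10 °C in E. globulus. With elevated CO2 at 10 °C, 3 gibberellin genes were lower than in the E. grandis control, beside 9.20% of the 11827 genes. Among them the ent-kaurenoic acid hydroxylase Eucgr.D02170 had 0.22, against 3.61 in the control. At 30 °C with elevated CO2 the GAST1 homolog Eucgr.F00588 had 7.93, against 10.29 in the E. grandis control.

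E. globulus at 20 °C with elevated CO2 was set against the E. grandis control in a further table, by its column headers, while the name of the table gives E. grandis for both groups. All 125 genes it shares with the table of E. globulus at 20 °C with elevated CO2 had equal values for that group in both (tolerance 0.0001), so the headers were followed. Of 11 synthesis genes 6 were higher in E. globulus and 0 lower, beside 7.11% and 12.8% of the 11827 genes. Eucgr.D02171 and Eucgr.D02173, described as ent-kaurenoic acid hydroxylase 2, had 4.64 and 3.44 in E. globulus and were listed at 0 in E. grandis. The response gene Eucgr.I00735 had 5.34 in E. globulus, against 8.54 in E. grandis. Species and CO2 cannot be told apart there.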
